A study of Mus musculus with 12 samples.

Results

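The protocadherin genes of the mouse were followed in liver RNA with and without Lcorl, which codes for a nuclear protein related to the corepressor Lcor. Every row of the deposited expression table whose gene symbol begins with Pcdh was taken, which gave 69 of 17714 rows. The set held 14 Pcdha rows, 21 Pcdhb rows, 22 Pcdhg rows, 11 non-clustered genes and the row Pcdha4-g, which is kept apart because by its RefSeq record it reaches from the alpha to the gamma cluster. The symbol alone decided membership, though the set was chosen with earlier results of these data known. The livers came from 6 knockout mice (KO) that lack Lcorl in the whole body and from 6 wild-type mice (WT). All 12 animals were female and 3 weeks old, the livers were taken at weaning and frozen, and no strain or further allele is given in the sources used here. Nothing in the labels says whether the animals were littermates. The p-values set the difference between KO and WT against the spread between these animals, and treat the animals as independent. Pcdh8 and Pcdhb1 were not analysed here.

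Protocadherins are cadherin-like proteins that span the cell membrane and bind the same protein on a neighbouring cell. The clustered genes lie in 3 neighbouring arrays, alpha, beta and gamma. In the alpha and gamma arrays each gene has a large first exon of its own, which codes for the outer part of the protein and the membrane span, and all genes of an array splice to the same set of constant exons, which codes for the common inner part. Beta genes consist mainly of a single large exon and have no shared constant exons. The clustered proteins are best known for giving neurons a surface identity, whereas the non-clustered ones, many of them in the delta group, act in cell adhesion and motility in several tissues.

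The deposited values are normalized counts, that is reads divided by 1 factor per library, and the reads behind them came to between 27692285 and 31296485 per library in KO livers and between 21769795 and 28655120 in WT livers. Lcorl itself had between 0 and 2.83 normalized counts in KO livers, against 234 to 308 in WT livers, so each library carried the genotype of its label. Albumin (Alb) had between 2229511 and 3011825 normalized counts in KO livers and between 2713201 and 3020889 in WT livers. The neuronal gene Snap25 was at or below 1.98 in each liver. WT 6 was the 1 liver with clear fat transcripts, with 53.4 normalized counts of Adipoq against 0 to 0.975 in the others. KO 2 was the 1 liver with the pancreas transcript Reg1, at 126 against 0 in the others. Among other pancreas genes, Ctrb1 was also highest in KO 2, at 26.7. Cela1 and Pnliprp1, found in every liver, were lowest in KO 2, at 128 and 23.8. Levels in whole liver cannot tell fewer cells of a type from less RNA per cell.

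Of the 69 rows, 33 had a mean of at least 10 normalized counts and were tested, and 36 lay under that level. Pcdh19 rose in KO livers, no row fell, and the other 32 did not pass the test (limma with Benjamini-Hochberg adjustment over all tested genes, adjusted p under 0.05). Pcdh19 reached the level of 10 through its KO livers, with a mean of 20.1 there against 7.49 in WT livers. Fitted without that filter, 1 of the 69 rows passed, and none of the 36 rows under the level did. Over the whole table, 601 of 13569 tested genes passed, which is 4.43%, with 1.75% higher and 2.68% lower in KO livers. An unadjusted p under 0.05 was found for 23 of the 33 rows and for 23.4% of all tested genes, but 20 of the 23 are Pcdhg rows that repeat largely the same reads. None of the 33 rows had KO and WT ranges that did not overlap, a pattern seen for 2.96% of all tested genes. The median log2 change of the 33 rows was -0.32, which is again set by the 22 Pcdhg rows, and that of all tested genes was 0.0075.

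**Figure D1:**
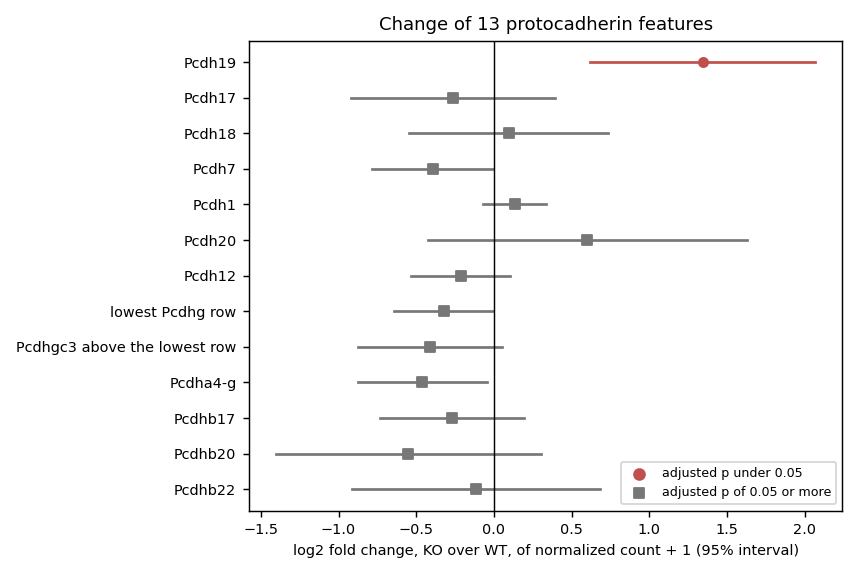
Log2 fold change, KO over WT, of normalized count + 1 for 13 protocadherin features, as the limma estimate (points) with its 95% interval (lines). The 22 Pcdhg rows are drawn as the lowest row of the class and the part of Pcdhgc3 above it; the interval of Pcdh19 runs from 0.62 to 2.07 and its point alone is marked as past an adjusted p of 0.05.

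Pcdh19 codes for an X-linked delta protocadherin that binds the actin-regulating WAVE complex and works together with N-cadherin. In people its variants cause an epilepsy that affects mainly heterozygous females. The gene lies on the minus strand of chrX:133582860-133688987 (GRCm38, GENCODE M21). Its normalized counts were 30.0, 9.90, 14.5, 22.1, 16.02 and 28.3 in KO livers 1 to 6, and 7.05, 6.80, 4.88, 5.10, 4.88 and 16.2 in WT livers 1 to 6. Each KO liver lay above 5 of the 6 WT livers, and WT 6 lay above 3 of the 6 KO livers, so the groups overlapped. The mean was 20.1 ± 8.04 in KO livers and 7.49 ± 4.38 in WT livers (SD, n = 6 each), from 127 and 44 reads in all. On the log2(normalized count + 1) scale the change was 1.34 with a standard error of 0.34 and a 95% interval from 0.62 to 2.07, with a limma adjusted p of 0.0430. In the authors' deposited table the gene has an adjusted p of 0.0123.

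The call on Pcdh19 lay close to the threshold. It was lost with library totals made equal, where the limma adjusted p was 0.0503. It was also lost with the run of neighbouring animal numbers as a covariate, where the limma adjusted p was 0.116. Leaving out KO 1, KO 4, KO 5, KO 6 or any of WT 1 to WT 5 took the limma adjusted p to values between 0.0575 and 0.0948. It held without KO 2, without KO 3 and without WT 6, and without WT 6 the log2 change was 1.57 with a limma adjusted p of 0.0102. Without both WT 6 and KO 2, the livers marked by Adipoq and by Reg1, the log2 change was 1.74 and the limma adjusted p 0.00483. For Pcdh19 these were also the highest WT liver and the lowest KO liver, so leaving them out widens the difference in any case. The estimate stayed above 0 in each of these settings.

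The animal numbers fall into 4 runs, and 3 of them hold both genotypes. In the run of KO 1 and WT 1, KO 1 had 30.0 normalized counts of Pcdh19 against 7.05 in WT 1. In the run of KO 2 to KO 4 with WT 4, KO 2, KO 3 and KO 4 had 9.90, 14.5 and 22.1 against 5.10 in WT 4. In the last run, KO 5 and KO 6 had 16.02 and 28.3 against 4.88 in WT 5 and 16.2 in WT 6. KO livers thus lay above the WT livers of their run in both of the earlier ones, and KO 5 lay just under WT 6 in the last. The remaining run held WT livers only. The gap between it and the run of KO 2 to KO 4 lay exactly at the cutoff of 10 that starts a run, and other cutoffs were not tried.

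The stretches upstream of 2 delta genes are shown because 1 of them rose and the other, Pcdh17, was more abundant and did not pass the test. Both are RefSeq promoter sequences (GRCm38.p6), read 5′ to 3′ on the gene's strand and ending before the outermost annotated start. The Pcdh19 stretch is chrX:133689045-133689243 on the minus strand and the Pcdh17 stretch is chr14:84443313-84443562 on the plus strand. Capitals mark the CCAAT box, here in its reverse-strand spelling ATTGG.
Pcdh19: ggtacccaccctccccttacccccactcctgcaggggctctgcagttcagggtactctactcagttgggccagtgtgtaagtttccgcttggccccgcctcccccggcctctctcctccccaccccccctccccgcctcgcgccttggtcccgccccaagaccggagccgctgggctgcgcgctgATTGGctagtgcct
Pcdh17: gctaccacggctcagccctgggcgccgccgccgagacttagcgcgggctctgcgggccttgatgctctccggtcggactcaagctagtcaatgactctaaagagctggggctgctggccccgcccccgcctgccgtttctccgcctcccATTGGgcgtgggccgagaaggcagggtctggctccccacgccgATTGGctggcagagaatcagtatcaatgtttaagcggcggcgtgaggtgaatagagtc
The box stands 65 bases before the start used in the RefSeq promoter record of Pcdh19, and 101 and 58 bases before that of Pcdh17. For Pcdh19 this start lies downstream of the outermost annotated start. The printed stretch of 199 bases therefore ends before reaching it, and the box stands nearer to the printed end. Searched on either strand in the 250 bases before the start, CCAAT was found in 7 of the 8 non-clustered members examined, against 33.8% of 32851 promoters. CCGCCC, the GC box, was found in 4 of the 8, among them Pcdh19 and Pcdh17, against 32.7% of promoters, and TATAAA in 1 of the 8, Pcdh15, against 12.4%. CCGCCC and CCAAT can share their adjoining CC, and a match is only a description of the window. Pcdh7, among the 8, had a match to none of these motifs. Pcdh1, Pcdh12 and Pcdh11x were not among the 8 and were not searched.

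The other delta genes that were tested did not pass. Pcdh1, an adhesion protein of epithelia, was the most abundant single gene of the set per length, with 234 normalized counts per exonic kilobase. Its normalized counts ran from 1887 to 2508 with a median of 2079 in KO livers and from 1632 to 2216 with a median of 2000.5 in WT livers, so the ranges largely coincided. The log2 change was 0.13 with a 95% interval from -0.072 to 0.34 and a limma adjusted p of 0.434. Pcdh17, which binds the WAVE complex as Pcdh19 does, had 29.0, 78.2, 126, 127, 113 and 112 normalized counts in KO livers 1 to 6, against 91.7, 122, 122, 89.2, 110 and 104 in WT livers 1 to 6. KO 1 was far below all others and KO 2 was the next lowest, while the remaining KO livers lay between 112 and 127. Its log2 change was -0.26 (standard error 0.30, limma adjusted p = 0.656), and without KO 1 the estimate was 0.052.

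Pcdh18, another delta gene, had 81.8, 26.7, 96.9, 83.8, 80.1 and 129 normalized counts in KO livers 1 to 6, against 56.4, 75.8, 97.6, 67.5, 71.2 and 62.0 in WT livers 1 to 6. Here KO 2 was the lowest liver and KO 6 the highest. The log2 change was 0.094 (standard error 0.30, limma adjusted p = 0.892), and without KO 6 it was -0.058. Pcdh7, whose inner part binds the protein phosphatase inhibitor Set, had 21.8, 31.7, 36.6, 28.9, 27.3 and 34.7 normalized counts in KO livers, against 38.8, 38.9, 49.8, 26.8, 49.7 and 37.2 in WT livers. All KO livers lay below 5 of the 6 WT livers, with WT 4 among the KO livers, and the log2 change was -0.39 (95% interval -0.78 to -0.0031, unadjusted p = 0.0484, limma adjusted p = 0.211). In GENCODE, 2235 exonic bases of Pcdh7 overlap 4932441J04Rik on the opposite strand, and without a stated strand setting reads of the 2 genes cannot be told apart.

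Pcdh20 had from 5.18 to 29.8 normalized counts with a median of 18.8 in KO livers and from 2.86 to 24.2 with a median of 9.84 in WT livers. Its spread within each group was wider than the difference, with a log2 change of 0.60 (95% interval -0.43 to 1.63, limma adjusted p = 0.487). Without WT 6, the lowest liver, it was 0.32. Pcdh9, Pcdh10 and Pcdh11x stayed under the level for testing. Pcdh9 averaged 6.43 normalized counts in KO livers and 6.57 in WT livers, and Pcdh11x 2.60 and 3.19. Pcdh10, a brain protocadherin that also binds the WAVE complex, had 0 reads in the 6 KO livers and 5 reads in the 6 WT livers; a count of 0 allows up to 3 reads, so no difference was detectable at this depth.

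**Figure D2:**
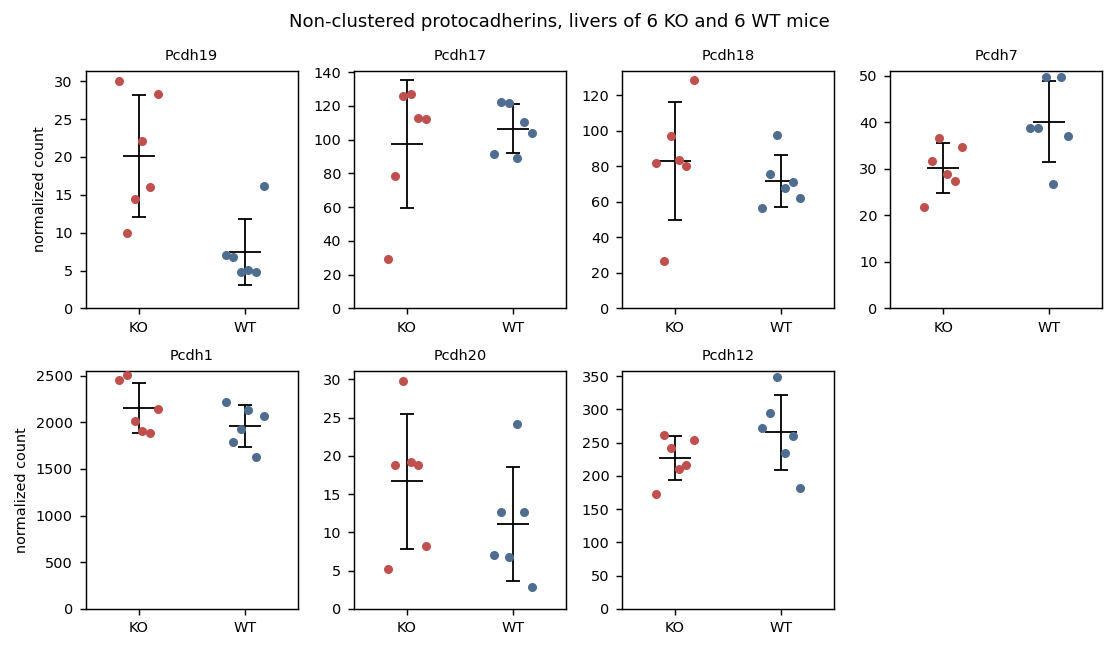
Normalized counts of the 7 tested non-clustered protocadherins in each liver (points), with the mean and SD of 6 livers per genotype (bar and whiskers), KO on the left and WT on the right; each panel has its own axis from 0. Pcdh19 sits at 9.90 to 30.0 in KO livers and at 4.88 to 16.2 in WT livers, and the single low KO points of Pcdh17 and Pcdh18 are KO 1 at 29.0 and KO 2 at 26.7.

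Outside the delta group, Pcdh12 is the protocadherin of endothelial cells, found at their junctions. It had from 173 to 261 normalized counts with a median of 229 in KO livers and from 182 to 349 with a median of 266 in WT livers. KO 1 was the lowest liver and WT 3 the highest. The log2 change was -0.21 (95% interval -0.53 to 0.10, limma adjusted p = 0.415). Pcdh15, which forms the tip link of inner-ear hair cells together with cadherin 23, averaged 5.26 normalized counts in KO livers and 4.01 in WT livers and was not tested.

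The gamma array gave the highest values of the clustered genes, and its 22 rows were near copies of each other. Their means over the 12 livers ran from 526 to 660 normalized counts. In GENCODE the 22 genes share 3 constant exons of 59, 89 and 1968 bases at chr18:37825021-37841870, and reads in these exons were counted in every row, since the lowest row held between 284 and 682 reads per library. The lowest row of each library is therefore an upper bound for what all the rows share. What a row holds above it is a lower bound for its reads outside that shared part. The lowest row had 294, 411, 529.8, 519.9, 520.04 and 549.8 normalized counts in KO livers 1 to 6, and 608, 595, 665, 497, 630.2 and 486 in WT livers 1 to 6. KO 1 and KO 2 were the lowest, and the remaining KO livers lay between the 2 lowest WT livers, WT 4 and WT 6, and the other WT livers.

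That shared level averaged 471 ± 99.3 normalized counts in KO livers and 580 ± 72.8 in WT livers (SD, n = 6 each). Its log2 change was -0.32 (standard error 0.15, 95% interval -0.64 to -0.0055, unadjusted p = 0.0467), with a limma adjusted p of 0.207 when the shared reads enter the fit once. As 22 separate rows, log2 changes ran from -0.34 to -0.32 and limma adjusted p from 0.202 to 0.220, so none passed. Without KO 1 the log2 change of Pcdhgc3, the row with the most reads, was -0.20 with a limma adjusted p of 0.316. Per length, the shared exons had 222 ± 46.9 normalized counts per kilobase in KO livers and 274 ± 34.4 in WT livers, beside 234 for Pcdh1 per exonic kilobase over all 12 livers.

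Pcdhgc3 codes for gamma-C3, a C-type isoform that is widely expressed and binds the Wnt pathway scaffold Axin1. Its row alone stood well above the others, with 64.5% of all reads that the 22 rows held above the lowest row. Above that row it had 58.0, 101, 141, 142.5, 119 and 142.5 normalized counts in KO livers 1 to 6, and 159, 189, 165, 113, 162 and 123 in WT livers 1 to 6. KO 1 was again the lowest, and 3 KO livers lay above WT 4 and WT 6. The means were 117 ± 33.5 in KO livers and 152 ± 28.4 in WT livers, with a log2 change of -0.41 (standard error 0.21, limma adjusted p = 0.269). Without KO 1 that change was -0.22, and the change of the lowest row was -0.19. As a share of the lowest row this was 24.5 ± 2.85% in KO livers and 26.1 ± 3.05% in WT livers, a difference smaller than the spread within either group.

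Spread over its 3383 annotated exonic bases that the 22 genes do not share, 2568 of them in its large first exon, the part of Pcdhgc3 above the lowest row came to 39.8 normalized counts per kilobase. The other 21 gamma genes had between 0.0997 and 3.01 over theirs, with a median of 1.14, Pcdhgb2 highest and Pcdhgc5 lowest. All these values are lower bounds, since the lowest row was subtracted in each library. Which of these exonic bases the reads came from is not given by the table. The order after Pcdhgc3 by reads above the lowest row was Pcdhgb2 with 103 reads over the 12 libraries, Pcdhga12 with 92 and Pcdhgb6 with 87, so these 3 lay close together. At the low end, Pcdhgb8, annotated as a polymorphic pseudogene, and Pcdhga8 had 6 reads each, Pcdhgc5 had 7 and Pcdhgc4, an isoform needed for neuron survival, had 14. By genotype Pcdhgb2 had 55 such reads in KO livers and 48 in WT livers, Pcdhga12 had 49 and 43, and Pcdhgb6 had 39 and 48. In GENCODE, 1559 exonic bases of Pcdhgc3 overlap BC037039 on the opposite strand, which bears on its own reads unless strand was used in counting.

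Together, the 21 gamma genes other than Pcdhgc3 held 25.9, 80.2, 69.7, 97.2, 78.2 and 63.01 normalized counts above the lowest row in KO livers 1 to 6, and 70.5, 85.5, 87.8, 67.5, 85.8 and 78.2 in WT livers 1 to 6. KO 1 was far below the others, KO 4 was the highest of all, and the remaining KO livers lay within or just below the WT range. No single one of the 21 held more than 18 reads above the lowest row in a library.

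**Figure D3:**
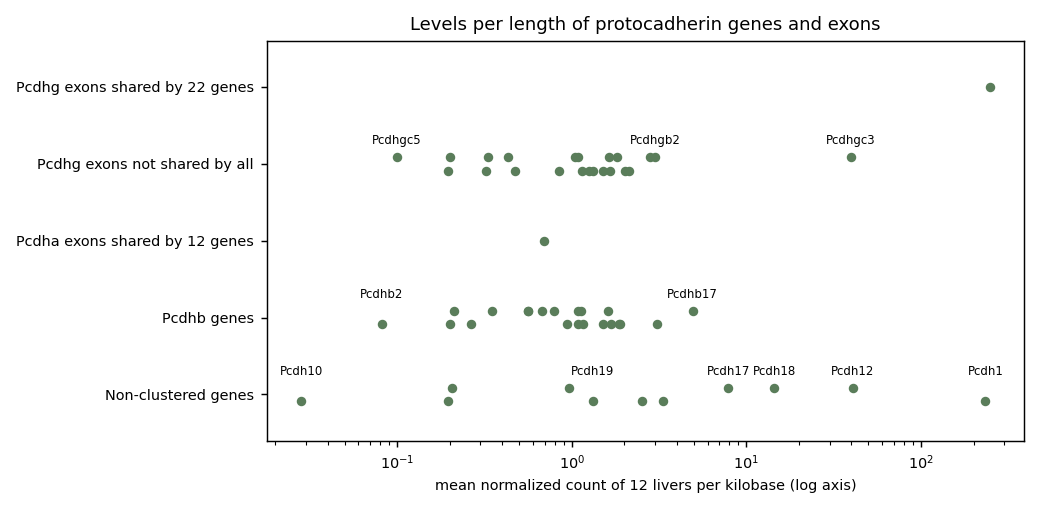
Mean normalized count of the 12 livers per kilobase, on a log axis, for the exons that gamma or alpha genes share, the exonic bases of each of the 22 gamma genes that they do not all share (with the row's counts above the lowest row), the 21 beta genes and the 11 non-clustered genes; each point is 1 gene or 1 set of exons. The shared gamma exons at 248 and Pcdh1 at 234 lie highest, Pcdhgc3 at 39.8 stands apart from the other gamma genes at 0.0997 to 3.01, and the beta genes span 0.0816 to 4.92.

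The name Pcdha4-g is listed in RefSeq as a synonym of Gm37013, a record that spans chr18:36952648-37841873 and so reaches from the alpha to the gamma array. GENCODE uses the names differently: there Gm42416 shares 2410 exonic bases with Pcdha4 and 446 with each gamma gene, whereas Gm37013 shares 222 with Pcdha6 and 91 with each gamma gene. The sources used here do not say which of these gene models the row was counted on. It held 426 reads in KO livers and 533 in WT livers, whereas Pcdha4 itself held 9 and 15, so nearly all its reads were not counted for Pcdha4. Its normalized counts were 38.3, 66.3, 74.0, 74.1, 75.4 and 71.2 in KO livers 1 to 6, against 102, 95.2, 109, 62.4, 107 and 73.4 in WT livers 1 to 6. KO 1 was far below the others, the remaining KO livers lay close together, and WT 4 and WT 6 fell within or below them. The log2 change was -0.46 (95% interval -0.88 to -0.046, unadjusted p = 0.0320, limma adjusted p = 0.171), and without KO 1 it was -0.31 with a limma adjusted p of 0.276. Which of its reads are the same as those of the gamma rows was not tested.

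Alpha genes were barely detected. The 14 rows held between 0 and 8 reads per library, and 11 of them were identical in all 12 libraries, with a mean of 1.98 normalized counts. In GENCODE 12 of the genes share constant exons of 59, 89 and 2712 bases. Pcdhac2, Pcdha3 and Pcdha5 were the 3 rows with any reads above the lowest row, with 4, 2 and 1 such reads over the 12 libraries. The lowest alpha row had 2, 4, 0, 1, 0 and 2 reads in KO livers 1 to 6, against 2, 6, 3, 0, 3 and 1 reads in WT livers 1 to 6. These counts are too low to show a difference at this depth.

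Beta genes have no shared constant exons, and no 2 of the 21 rows were identical. In GENCODE Pcdhb21 and Pcdhb22 overlap by 455 bases, the 1 overlap within the class. Levels per exonic kilobase ran from 0.0816 normalized counts for Pcdhb2 to 4.92 for Pcdhb17, with a median of 1.08. Only Pcdhb17, Pcdhb20 and Pcdhb22 reached the level for testing, and none passed. Pcdhb17 had from 14.8 to 29.2 normalized counts with a median of 18.8 in KO livers and from 19.1 to 29.4 with a median of 26.3 in WT livers, a log2 change of -0.27 (95% interval -0.73 to 0.19, limma adjusted p = 0.486).

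Pcdhb20 had from 2.07 to 14.5 normalized counts with a median of 9.53 in KO livers and from 5.83 to 19.5 with a median of 13.5 in WT livers, a log2 change of -0.55 (95% interval -1.40 to 0.30, limma adjusted p = 0.436). Without KO 1, the lowest liver, that change was -0.24. Pcdhb22 had from 4.14 to 22.8 normalized counts in KO livers and from 5.85 to 21.4 in WT livers, a log2 change of -0.12 (95% interval -0.91 to 0.68, limma adjusted p = 0.893). In all 3 genes the ranges overlapped widely. Among the 18 beta genes under the level for testing, Pcdhb16 and Pcdhb14 were the most abundant, at 9.79 and 7.38 normalized counts in KO livers against 9.96 and 11.4 in WT livers. Pcdhb2 was the least, with 3 reads in KO livers and 0 in WT livers. Among those between, Pcdhb4 averaged 6.63 normalized counts in KO livers and 4.54 in WT livers. Pcdhb9 averaged 4.32 and 5.53, and Pcdhb18 averaged 7.87 and 9.15. Summed over the 21 beta rows, normalized counts were 105 ± 28.3 in KO livers and 123 ± 12.97 in WT livers, and KO 1 was the lowest at 51.8.

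Fitted without the filter on low values, none of the 36 rows under it passed, and their lowest limma adjusted p was 0.142. Their log2 changes then ran from -0.91 to 0.47, and 1 of the 36 had an unadjusted p under 0.05.

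**Figure D4:**
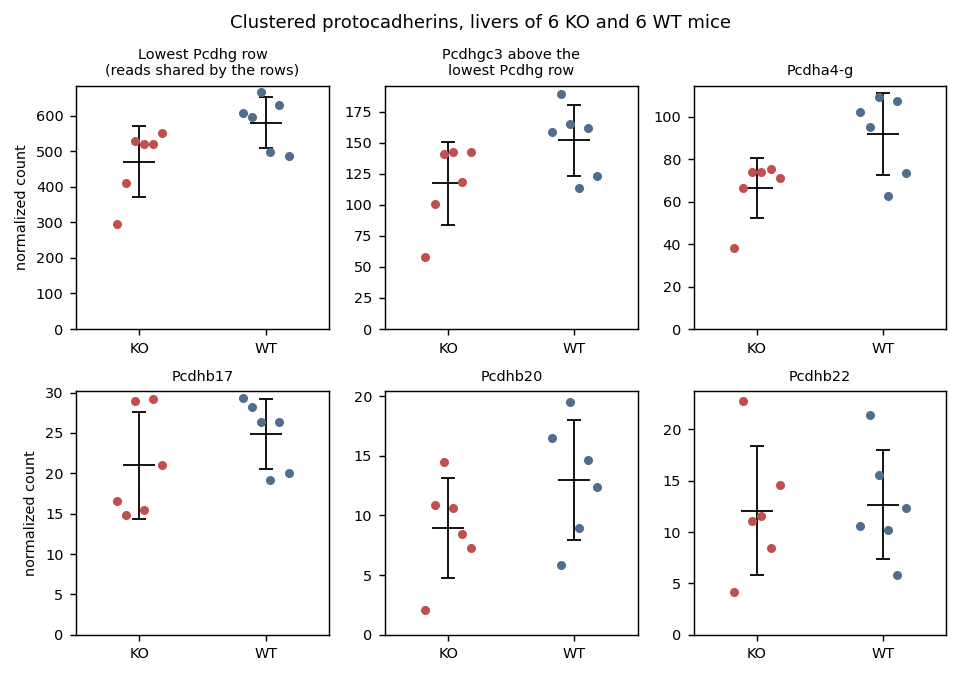
Normalized counts of 6 features from the clustered genes in each liver (points), with the mean and SD of 6 livers per genotype (bar and whiskers), KO on the left and WT on the right; each panel has its own axis from 0. In the first 3 panels the lowest KO point is KO 1, at 294 for the lowest Pcdhg row, 58.0 for Pcdhgc3 above it and 38.3 for Pcdha4-g, and the ranges of KO and WT livers overlap in all 6 panels.

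Part of the variation followed single livers. Over the 13 features, KO 1 was the lowest of the 12 libraries in 8, and WT 3 was the highest in 5. The same counts over all tested genes were not made, and both gamma features come from the same rows. KO 1 was also the highest of all livers for Pcdh19. Markers of endothelial and stellate cells varied in the same livers. The 9 sinusoidal endothelial markers summed to between 6219 and 12214 normalized counts in KO livers and between 8312 and 13587 in WT livers. None of the 9 passed the test, 6 had estimates below 0, and KO 1 gave the lowest sum. The 7 vascular endothelial markers summed to between 4517 and 7389 in KO livers, lowest in KO 1, and to between 5340 and 8148 in WT livers, and none passed.

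The 11 stellate cell and fibroblast markers summed to between 16040 and 30614 normalized counts in KO livers and between 25155 and 33919 in WT livers, again lowest in KO 1. All 11 had estimates below 0, with a median log2 change of -0.20, and 1 passed: Lum, a matrix proteoglycan of fibroblasts, fell by 0.72 on the log2 scale, with 497 ± 151 in KO livers and 799.8 ± 141 in WT livers (limma adjusted p = 0.0440). That call was lost without KO 1, where the limma adjusted p was 0.0828, and in most other settings tried. The part of these cells in the protocadherin values was not tested. Neither the 6 hepatocyte nor the 8 neuron and glia markers, 5 of which were tested, held a gene that passed, and the second list summed to between 151 and 198 in KO livers and 136 and 158 in WT livers. The smooth muscle, cholangiocyte, Kupffer cell and fat lists held none either, and of the pancreas list Cela1 fell, with 170 ± 36.9 in KO livers and 375 ± 94.97 in WT livers.

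**Figure D5:**
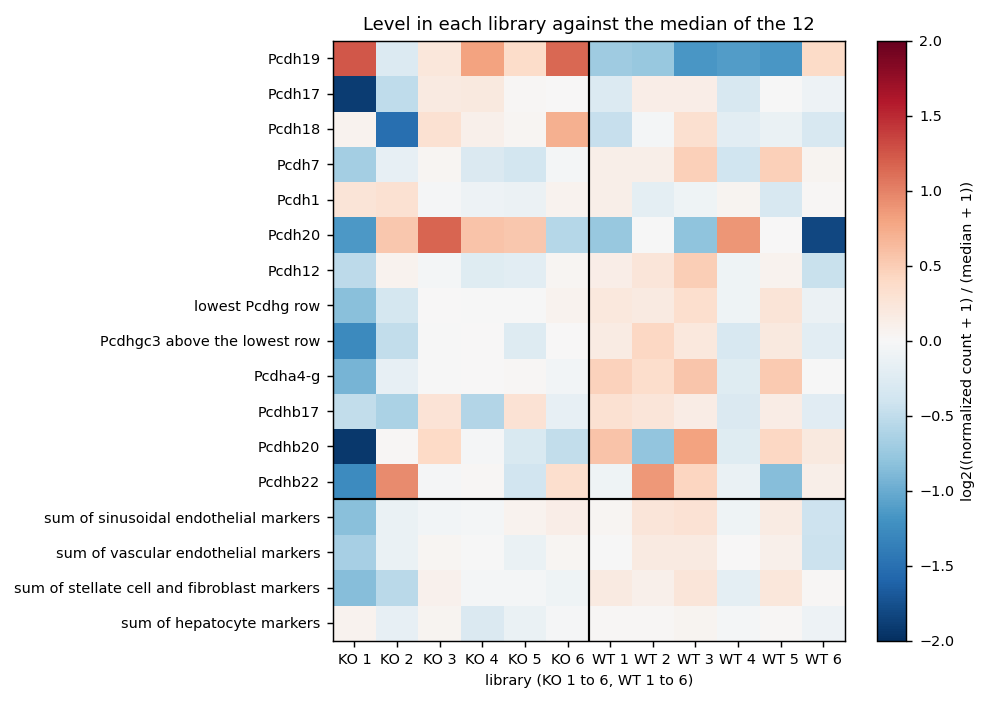
Level of 13 protocadherin features and of 4 summed marker lists in each library, as log2 of (normalized count + 1) over the median of the 12 libraries, with KO 1 to 6 left of the line and WT 1 to 6 right of it. KO 1 is the lowest library in 8 of the 13 features and in both endothelial sums and the stellate sum, and it is the highest for Pcdh19.

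Other cadherins, and genes tied to the function of cadherins or protocadherins, were set beside them. Of 8 tested classical and type II cadherins none passed. The nearest was Cdh11, a cadherin of mesenchymal cells, with 12.8 ± 4.17 normalized counts in KO livers and 30.6 ± 15.1 in WT livers, ranges that did not overlap, and a limma adjusted p of 0.0594. Of 10 large cadherins and other cadherin-repeat proteins 1 passed. Celsr1, a planar cell polarity cadherin, fell by 1.81 on the log2 scale, with 124 ± 35.3 normalized counts in KO livers and 439 ± 125 in WT livers (standard error 0.23, limma adjusted p = 0.00181). Its KO and WT ranges did not overlap. Fat4, a giant cadherin that also acts in planar cell polarity, had 48.7 ± 19.8 in KO livers and 75.5 ± 9.07 in WT livers (limma adjusted p = 0.0820).

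None of the 4 tested catenins, which tie classical cadherins to actin, passed. Beta-catenin (Ctnnb1) had 7377 ± 416 normalized counts in KO livers and 8328 ± 441 in WT livers, with a limma adjusted p of 0.0964. The regulators of clustered protocadherin promoters include the insulator protein CTCF, cohesin and DNA methyltransferases, which together select the first exon that is used. Of 23 such genes tested none passed. The cohesin subunit Rad21 had 1672 ± 141 in KO livers and 1921 ± 216 in WT livers (limma adjusted p = 0.155), and the maintenance methyltransferase Dnmt1 had 381 ± 79.4 and 470 ± 64.6 (limma adjusted p = 0.198). Of 21 signalling and cleavage partners, among them the WAVE complex and gamma-secretase, none passed. The WAVE subunit Cyfip1 had 1124 ± 32.4 in KO livers and 1272 ± 96.1 in WT livers (limma adjusted p = 0.0928). The median log2 changes of these 5 lists were -0.17, -0.17, -0.015, -0.036 and -0.018, in the order given, against 0.0075 for all tested genes.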

How the data were processed

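Libraries were made from liver RNA of 12 mice with the TruSeq Standard Total RNA kit, as the labels' protocols state. FastQC, STAR, featureCounts and DESeq2 are named in the submitters' processing notes along with mm10 (GRCm38), but no versions, roles, annotation or strand setting are given. The authors deposited normalized counts, a signal of reads over 1 size factor for each library. Every value was a whole multiple of its library's step (tolerance 0.001, 100% of values), so reads could be recovered. Log2 fold changes, p-values and adjusted p-values were deposited too; they are quoted for Pcdh19 alone, as the authors' own.

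Members and gene lists were chosen with earlier results of these data known. Genotypes were compared by limma 3.58.1 (R 4.3.3) with a mean-variance trend on log2(normalized count + 1), keeping genes whose mean was 10 or more, with 6 KO and 6 WT livers, no covariate and Benjamini-Hochberg adjustment over all tested genes (threshold 0.05). This scale understates changes of low genes. All Pcdh rows are described, with values by library where the mean was 10 or more, and up to 4 genes of smallest p could be named from each other list. Alternatives were pseudocounts of 0.5 and 10, no filter, a mean of 50 or more, equal totals, equal upper quartiles, edgeR 4.0.16, DESeq2 1.42.0 (both from recovered reads), the run of neighbouring animal numbers (a gap of 10 or more starts a run) as covariate, and libraries left out. The fit was tested on simulated data. Gene models are from GENCODE M21, promoters from RefSeq; figures used Python 3.11.15 and matplotlib 3.10.9. Libraries held between 21769795 and 31296485 reads, and limits for counts of 0 cover counting error only.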

Additional observations from a re-analysis of the deposited data

Results flagged for a closer look

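In 13 protocadherin features, the livers of each genotype were searched for a lowest or highest liver whose gap to the next, on the log2(normalized count + 1) scale, exceeded Dixon's 95% critical value for 6 samples. Over the 26 groups examined 4 livers were marked, and chance alone marks about 1 in 20 groups. Among KO livers, KO 1 had 29.0 normalized counts of Pcdh17 against 78.2 in the next lowest, and 38.3 of Pcdha4-g against 66.3 in the next lowest. KO 2 had 26.7 of Pcdh18 against 80.1 in the next lowest KO liver. Among WT livers, WT 6 had 16.2 of Pcdh19 against 7.05 in the next highest. On the linear scale the gaps of KO 1 for Pcdha4-g and of WT 6 for Pcdh19, at 0.756 and 0.808 of the range, stayed past the critical value, and those of Pcdh17 and Pcdh18, at 0.502 and 0.523, did not.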

How the results depend on the processing

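The number of protocadherin rows called, 1, was 0 with a mean of at least 50 (where Pcdh19 is not tested), with equal totals and with the animal-number run as covariate, and ran from 0 to 1 with 1 library left out. The log2 change of Pcdh19, 1.34, was 1.32 with equal totals and 1.400 with the run as covariate, both no longer past the threshold, and ran from 1.21 to 1.57 with 1 library left out; with a pseudocount of 10 it was 0.77. Genes called over the table numbered 601 as reported, 1323 with DESeq2, 158 with the run as covariate, 917 without both WT 6 and KO 2, and from 224 to 933 with 1 library left out (lowest without KO 4, highest without WT 6). Other listed genes called numbered 3, against 8 with DESeq2 and from 2 to 6 with 1 library left out. Estimates that changed sign, none of them called, were Pcdh17 at 0.052 without KO 1 (from -0.37 to 0.052 with 1 library left out), Pcdh18 at -0.058 without KO 6 (from -0.058 to 0.39), and Pcdhb22 at 0.044 with the run as covariate (from -0.32 to 0.12 with 1 library left out, above 0 without KO 1 and without WT 2); the cause was not tested. Among the other estimates, none of them called, leaving out 1 library moved Pcdh20 to 0.32 (without WT 6), Pcdhb20 to -0.24 and Pcdhgc3 above the lowest row to -0.22 (both without KO 1), Pcdh1 to 0.081 (without WT 5) and Pcdh12 to -0.13 (without WT 3). Replacing the rows that share reads by 1 shared row and the reads above it, chosen after seeing the data, gave 603 calls over the table and 1 protocadherin call. Summed levels, KO over WT, were 0.590 for alpha rows, 0.848 for beta, 0.811 for gamma and 1.07 for non-clustered rows. Most of the non-clustered sum was Pcdh1, and without that gene the ratio was 0.944. The alpha ratio was 0.350 without both WT 6 and KO 2. No paired analysis was possible because replicate numbers follow accession order. Depth limits the alpha rows, most beta genes and Pcdh10, which held few reads.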
